A study of Mus musculus with 21 samples.

Results

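The T cell receptor alpha segments are the variable (Trav) and joining (Traj) gene segments of the locus that encodes the alpha chain of the T cell antigen receptor. They were taken as every row of the count table whose symbol starts with Trav or Traj, which gave 128 Trav and 60 Traj segments, 188 of 49510 rows. Reads were found for 109 Trav and 57 Traj segments in at least 1 library, and 86 Trav and 43 Traj segments (129 in all) passed the filter on low counts used for testing. A segment's share is its reads as a percent of all Trav or all Traj reads of the library.

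A developing alpha-beta T cell joins a V segment to a J segment of this locus, and the joint is spliced to the constant gene Trac. The V and J segments that a cell carries are inherited by its daughters, so a bulk library of a few expanded clones is dominated by few segments and a library of many unrelated cells is spread over many. The genes lie in the order V, J and C, and the V region of the mouse was duplicated, so that many Trav genes have a near-identical copy marked by a d or an n in the symbol.

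RNA was sequenced in bulk from sorted regulatory T cells (Tregs) and conventional T cells (Tconvs) of Foxp3-GFP mice aged 8 weeks, in which green fluorescence reports the Treg factor Foxp3. All mice had a myocardial infarction (MI) 7 days earlier, and no uninjured group is used here. Heart, spleen and NDLN, a lymph node not draining the heart, gave both cell types, while MLN, the node draining it, gave Tregs alone, which makes 7 groups of 3 libraries. Library totals ran from 14515387 to 28323649 counts, of which 4259 to 11431 were Trav reads and 678 to 3280 Traj reads. The labels do not say that replicates are separate animals or how many cells went into a library, so p-values measure the spread between these libraries, which may be partly technical.

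The labels held for the defining genes. Foxp3 was at 73.1 to 167 CPM (a count scaled to the library's total, here adjusted by TMM) in the Treg group means and at or below 0.0841 CPM in the Tconv group means, and all 6 alpha-beta T cell markers had counts in each group. Mitochondrial rRNA was 0.0567 to 0.102% of counts in 5 libraries (MLN Treg replicates 1 and 2, heart Treg replicate 1, heart Tconv replicates 1 and 2) and 0.954 to 12.3% in the other 16. Fibroblast markers had counts for 5 of 6 genes in heart Tregs, with a sum of 81.4 to 379 CPM (unscaled) and Pdgfra at 0, and for 6 of 6 in heart Tconvs, with 1.44 to 171 CPM, against 5.18 CPM or less in each lymphoid library. B cell markers had counts for 2 of 6 genes in heart Tregs, with a sum of at most 23.4 CPM, against 236 to 483 CPM in spleen Tregs, 246 to 283 CPM in NDLN Tregs and 43.3 to 99.2 CPM in MLN Tregs, and they reached 47.3 CPM in heart and 29.4 CPM in lymphoid Tconvs. CD8 markers summed to 0 to 33.2 CPM in heart Tregs and 13.7 to 60.5 CPM in lymphoid Tregs. Macrophage and monocyte markers summed to 0.0353 to 40 CPM in heart Tregs, 10.6 to 63.5 CPM in lymphoid Tregs, and up to 163 CPM in heart Tconvs. The part of these cells in the results below was not tested.

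The Traj sequences differ in a feature that a joining segment needs. A working joining segment encodes phenylalanine or, less often, tryptophan followed by glycine, any residue and glycine, the motif at which the antigen-binding loop ends. The letters TTTGGNNNNGGN or TTCGGNNNNGGN were found in 43 of 60 Traj transcripts and TGGGGNNNNGGN in a further 2, which makes 75%, and in 0 on the opposite strand. Segments with either form held 75.8% of all Traj reads, and the 15 with neither held 24.2%. Below are the segment with the most reads over all libraries (Traj8), those that led heart Treg libraries or had a large share in a single library (Traj21, Traj44), the joining segments of the invariant NKT and MAIT receptors (Traj18, Traj33), and Traj2, which had 0 reads in heart Tregs. The 12-base motif is in capitals and the sequences are GENCODE M21 transcripts on the plus strand of GRCm38, the build that mm10 stands for.

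Traj8, chr14:54209918-54209954: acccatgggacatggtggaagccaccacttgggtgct
Traj21, chr14:54198790-54198846: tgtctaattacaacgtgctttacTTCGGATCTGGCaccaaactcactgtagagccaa
Traj44, chr14:54173690-54173750: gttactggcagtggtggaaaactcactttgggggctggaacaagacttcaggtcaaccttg
Traj18, chr14:54200777-54200842: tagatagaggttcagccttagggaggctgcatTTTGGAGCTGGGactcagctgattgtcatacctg
Traj33, chr14:54185358-54185414: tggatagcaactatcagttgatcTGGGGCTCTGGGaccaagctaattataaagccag
Traj2, chr14:54217836-54217901: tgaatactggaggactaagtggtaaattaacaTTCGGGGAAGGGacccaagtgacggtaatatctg

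Traj8 is annotated as a pseudogene, is 37 bases long and has no match to the motif, yet it had 3028 reads in 20 of 21 libraries. Traj44 is annotated as a gene and has no match either. All 128 Trav and 60 Traj segments lie on the plus strand of chromosome 14, and the Traj exons run from 29 to 72 bases.

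The ends of the Trav segments show how close some of the copies are. The last 60 bases of 6 Trav transcripts follow, chosen because Trav7-4 led the most libraries, Trav9-4 and Trav7-5 were the Trav segments with the highest mean shares in heart Tregs, and Trav6-3 had 0 reads in them. Capitals mark TACTNCTGTGC, the 11-base stretch found in the most of these ends (49) with any base, N, at position 5. It spans the conserved cysteine before the junction and was found in the last 60 bases of 66 of 128 Trav transcripts (51.6%) and on the opposite strand of 0.

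Trav7-4, gene at chr14:53461099-53461738: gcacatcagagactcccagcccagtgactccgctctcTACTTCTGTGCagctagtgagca
Trav7d-4, gene at chr14:52769753-52770392: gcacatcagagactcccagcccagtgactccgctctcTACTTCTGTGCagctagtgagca
Trav9-4, gene at chr14:53676141-53676630: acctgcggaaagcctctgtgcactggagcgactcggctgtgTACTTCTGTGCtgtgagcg
Trav7-5, gene at chr14:53530786-53531313: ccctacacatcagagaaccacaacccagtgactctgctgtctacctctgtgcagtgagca
Trav6-3, gene at chr14:53428711-53430377: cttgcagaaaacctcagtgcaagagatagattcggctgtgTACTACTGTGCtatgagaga
Trav6d-3, gene at chr14:52725299-52726919: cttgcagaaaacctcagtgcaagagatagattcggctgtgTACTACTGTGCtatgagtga

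Trav7-4 and Trav7d-4 differed at 2 of 451 bases of their transcripts, and Trav6-3 and Trav6d-3 at 1 of the 347 bases compared from the 3′ end. Other pairs were further apart, with 19 of 399 bases for Trav14-1 and Trav14d-1 and 11 of 395 for Trav9-4 and Trav9n-4. How the counting treated reads that match more than 1 copy is not given in the sources used here, so the shares of such copies are uncertain. Of the 19 Trav segments with 0 reads in all libraries, 14 are annotated as pseudogenes and 6 have no stretch of 50 bases that is absent from all other Trav transcripts. Of the 109 with reads, 33 have no such stretch. The 46 segments in which under 10% of 50-base stretches were unique had a median of 66.5 reads over the 21 libraries, the 28 with 10 to 50% had 1452 and the 54 with more had 1051.

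**Figure D1:**
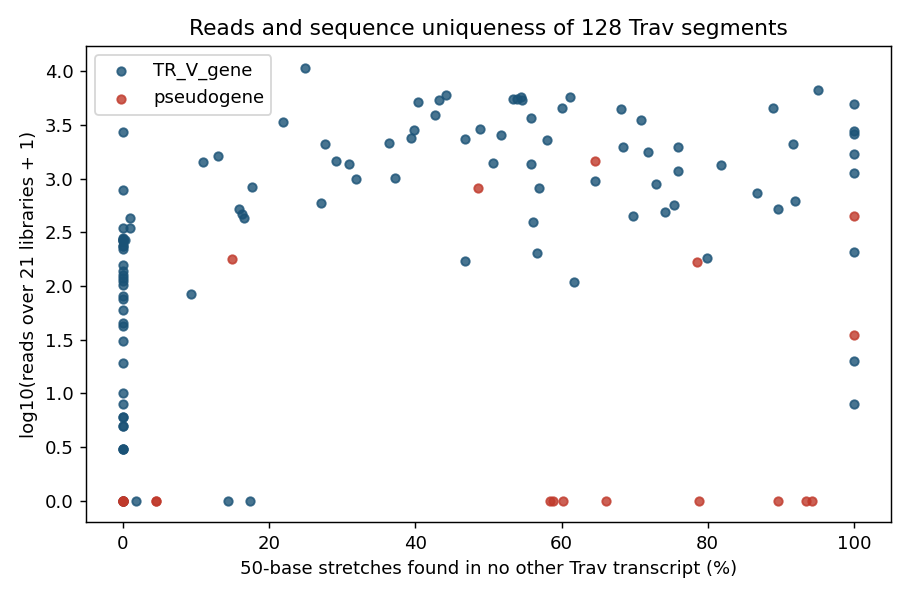
Each point is 1 of the 128 Trav segments, with the percent of its 50-base stretches found in no other Trav transcript on the horizontal axis and log10 of its reads over 21 libraries plus 1 on the vertical axis, red for annotated pseudogenes. The segments under 10% reach 2749 reads at most, while the highest point, Trav7-4, has 10868.

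Heart Tregs spread their Trav reads less evenly than MLN Tregs and heart Tconvs, without overlap between the 3 libraries of each group, but not less evenly than spleen or NDLN Tregs beyond the spread between libraries. Evenness is the Shannon entropy of the shares divided by its maximum over the segments with reads in any library, so 1 means equal use. Trav evenness was 0.727, 0.709 and 0.665 in heart Tregs, and 0.803, 0.760 and 0.748 in heart Tconvs. MLN Tregs had 0.775, 0.814 and 0.792, spleen Tregs 0.689, 0.777 and 0.764, and NDLN Tregs 0.696, 0.735 and 0.718. Spleen Tconvs had 0.675, 0.774 and 0.767 and NDLN Tconvs 0.611, 0.680 and 0.694. NDLN Tconvs were therefore the group with the lowest mean (0.662 ± 0.0442, SD, n = 3) and MLN Tregs the group with the highest (0.793 ± 0.0194, SD, n = 3), and the 3 values of NDLN Tconvs lay below all of NDLN Tregs. A comparison of 3 libraries against 3 cannot give an exact permutation p below 0.1, so these orders are descriptions. The number of genes detected per library also differed. It ranged from 10980 to 12917 over heart Treg libraries, 13333 to 16239 over heart Tconv and 12901 to 13965 over MLN Treg libraries. Group means were 10243 for NDLN Tconvs, 11707 for spleen Tconvs, 11738 for heart Tregs and 11942 for NDLN Tregs. Spleen Tregs averaged 12567, MLN Tregs 13363 and heart Tconvs 14982. The part of this number in the evenness differences was not tested.

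Over all lymphoid libraries, Trav evenness was 0.700 ± 0.0318 (SD, n = 3) in heart Tregs and 0.751 ± 0.0436 (SD, n = 9) in lymphoid Tregs. The difference of -0.0505 gave p = 0.105 in a two-sided exact permutation test over the libraries and 0.455 after Benjamini-Hochberg adjustment over the 25 tests made. In Tconvs the direction was the other way, with 0.770 ± 0.0288 (SD, n = 3) in heart and 0.700 ± 0.0616 (SD, n = 6) in lymphoid libraries, a difference of 0.0697 (exact permutation p = 0.107, adjusted 0.455). The heart-to-lymphoid difference of Tregs minus that of Tconvs, over heart, spleen and NDLN, was -0.0990 with an exact permutation p of 0.021, which did not pass after adjustment (0.298). Over the same tissues Tregs and Tconvs had mean Trav evenness of 0.720 and 0.724 (exact permutation p = 0.872). The 5 libraries with little mitochondrial rRNA had Trav evenness of 0.727 to 0.814 against 0.611 to 0.792 in the other 16, and within those 16 the differences were -0.0515 for Tregs, 0.0474 for Tconvs and -0.0901 for the difference between them. The last 2 values rest on a single heart Tconv library, replicate 3, and the first on heart Treg replicates 2 and 3. Their part in the result was not tested further. In bulk RNA, fewer cells that carry a segment and less of its RNA per cell cannot be told apart.

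**Figure D2:**
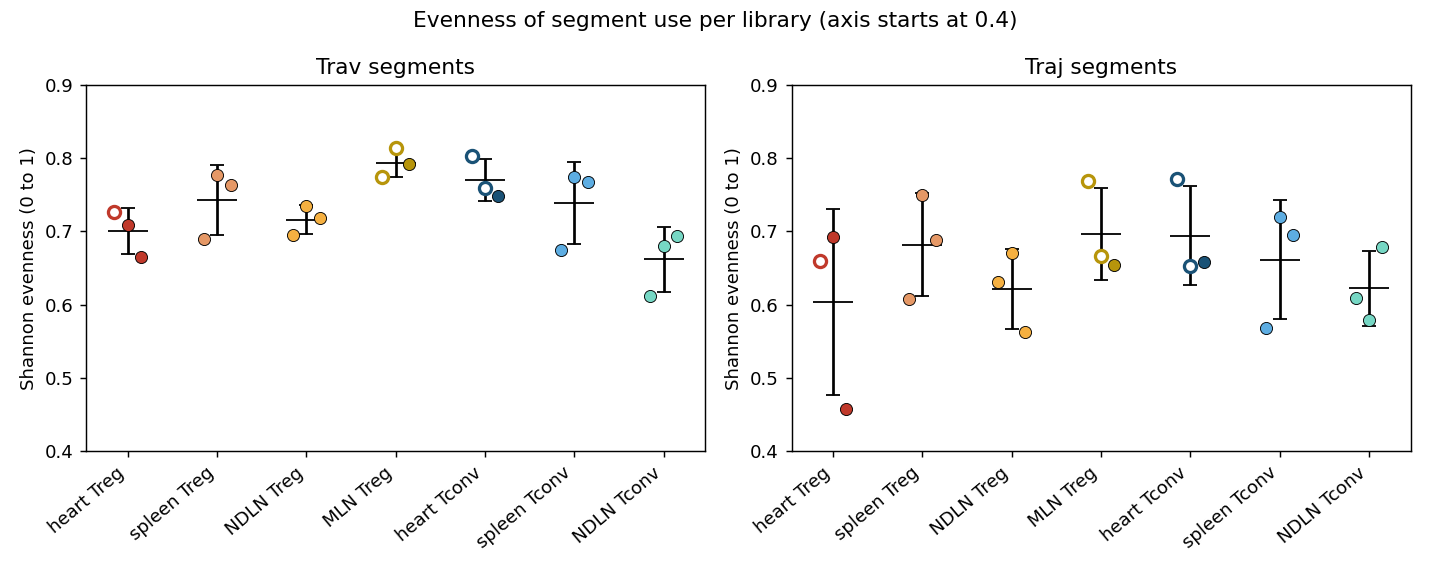
Shannon evenness (vertical axis, starting at 0.4) of Trav and Traj use in each library of the 7 groups, with the group mean and 1 SD as a bar and open circles for the 5 libraries with under 0.5% mitochondrial rRNA. The 3 heart Treg circles lie below the 3 heart Tconv circles for Trav, while heart Treg replicate 3 stands at 0.458 for Traj.

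Traj evenness was lowest in a heart Treg library. It was 0.659, 0.693 and 0.458 in heart Tregs, and 0.772, 0.653 and 0.659 in heart Tconvs. MLN Tregs had 0.768, 0.666 and 0.654, spleen Tregs 0.608, 0.750 and 0.688, and NDLN Tregs 0.631, 0.671 and 0.562. Spleen Tconvs had 0.568, 0.720 and 0.696 and NDLN Tconvs 0.609, 0.579 and 0.679, so the ranges of all groups overlapped that of heart Tregs. The mean was 0.603 ± 0.127 (SD, n = 3) in heart Tregs and 0.666 ± 0.0647 (SD, n = 9) in lymphoid Tregs, a difference of -0.0632 (exact permutation p = 0.277, adjusted 0.558). Heart Treg replicate 3 decided its sign: without that library the difference was 0.00951. Heart Tconvs had 0.694 ± 0.0671 (SD, n = 3) and lymphoid Tconvs 0.642 ± 0.0644 (SD, n = 6), a difference of 0.0527 (exact permutation p = 0.286, adjusted 0.558).

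Heart Tregs and NDLN Tconvs also had reads in the fewest Trav segments on average, with means of 52 and 50.3, and NDLN Tregs came next with 54.7. Heart Tregs had reads in 63, 46 and 47 Trav segments, heart Tconvs in 81, 70 and 77, MLN Tregs in 76, 82 and 74 and NDLN Tconvs in 45, 52 and 54. Spleen Tregs had 49, 81 and 63, NDLN Tregs 54, 60 and 50, and spleen Tconvs 63, 77 and 66. Depth differed between libraries, so each was also thinned to 4259 Trav reads, the lowest total. Such thinning does not even out the number of genes detected per library. Heart Tregs were then expected to show 59.9, 42.8 and 42.5 segments and heart Tconvs 79.6, 66.2 and 72.5, which again did not overlap. For Traj, thinned to 678 reads, heart Tregs were expected to show 18, 21.8 and 11 segments, MLN Tregs 33.5, 23.0 and 23.7 and heart Tconvs 36.8, 21 and 23.0. Heart Treg replicates 2 and 3 were thus among the libraries with the fewest Trav segments at equal depth, beside NDLN Tconv replicate 1 at 42.4.

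**Figure D3:**
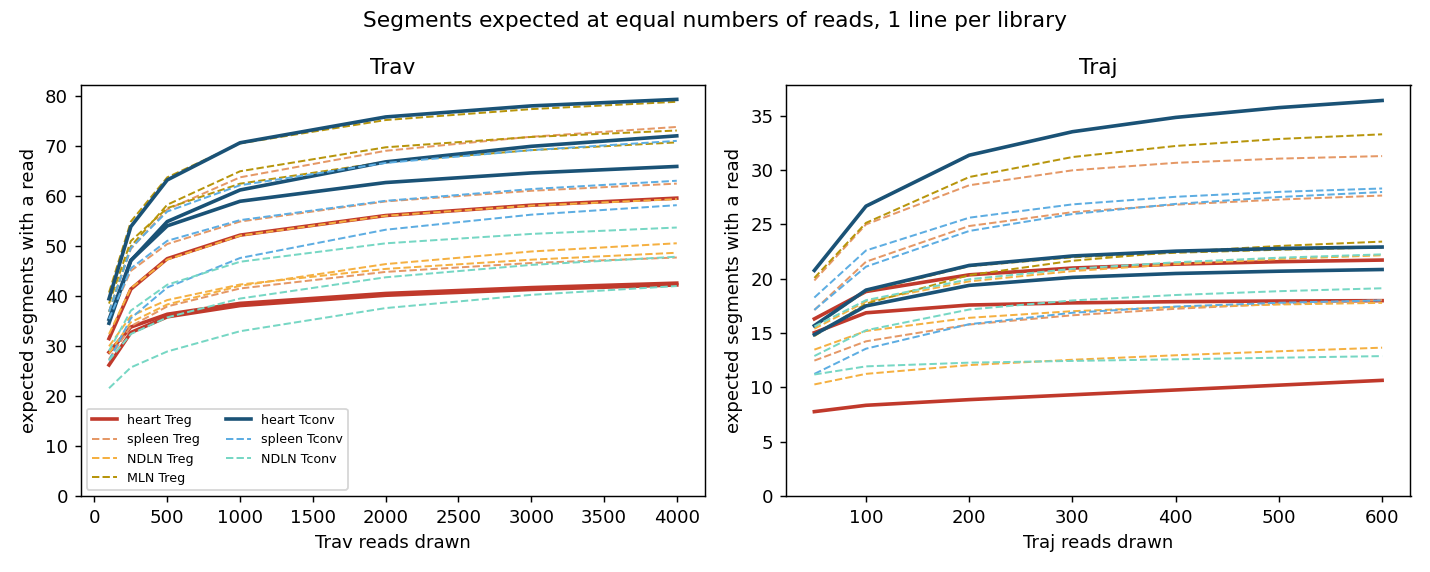
Expected number of segments with a read (vertical axis) when each library is thinned to the number of Trav or Traj reads on the horizontal axis, 1 line per library, solid for heart and dashed for lymphoid groups. The solid red lines of heart Treg replicates 2 and 3 run near the bottom for Trav, where the solid blue heart Tconv lines run in the upper part.

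The leading Trav segment differed from library to library. In heart Tregs it was Trav7-1 with 9.15% of Trav reads in replicate 1, Trav17 with 8.12% in replicate 2 and Trav9-4 with 14.3% in replicate 3. In heart Tconvs it was Trav7-4 with 6.86 and 10.2% and Trav9-2 with 10.3%. Over the 21 libraries 13 different Trav segments led, Trav7-4 in 6 libraries, Trav14-1 in 3 and Trav9-2 in 2. The 2 largest shares of all were in NDLN Tconvs, with Trav9-2 at 18.5% and Trav13-1 at 16.0%, and the third library of that group was led by Trav14d-3-dv8 at 12.6%. The mean largest Trav share was 10.5 ± 3.32% (SD, n = 3) in heart Tregs and 9.27 ± 2.34% (SD, n = 9) in lymphoid Tregs, with an exact permutation p of 0.527 and an adjusted p of 0.659. Without heart Treg replicate 3 the difference of 1.26 percentage points became -0.630. In Tconvs the means were 9.11 ± 1.95% (SD, n = 3) in heart and 13 ± 4.04% (SD, n = 6) in lymphoid libraries, with an exact permutation p of 0.155 and an adjusted p of 0.553.

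Among Traj segments, 10 led a library, Traj8 in 5 libraries, Traj12, Traj23 and Traj27 in 3 each and Traj21 in 2. Both libraries led by Traj21 were heart Tregs, at 16.0% in replicate 1 and 11.2% in replicate 2, and replicate 3 had 0 reads of it. In heart Treg replicate 3, Traj8 took 27.3% (95% Wilson interval 24.1 to 30.8%) and Traj44 26.7% (23.5 to 30.2%) of 678 reads. Traj44 had reads in only 2 other libraries, MLN Treg replicate 3 with 1.02% and heart Tconv replicate 2 with 0.987%. Intervals cover counting error only, since reads made by PCR are not independent molecules. The mean largest Traj share was 18.2 ± 8.25% (SD, n = 3) in heart Tregs and 15 ± 2.68% (SD, n = 9) in lymphoid Tregs (exact permutation p = 0.332, adjusted 0.558), and without heart Treg replicate 3 the difference of 3.12 points became -1.44. In Tconvs it was 16.0 ± 3.38% (SD, n = 3) in heart and 17.7 ± 2.48% (SD, n = 6) in lymphoid libraries (exact permutation p = 0.417, adjusted 0.581).

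**Figure D4:**
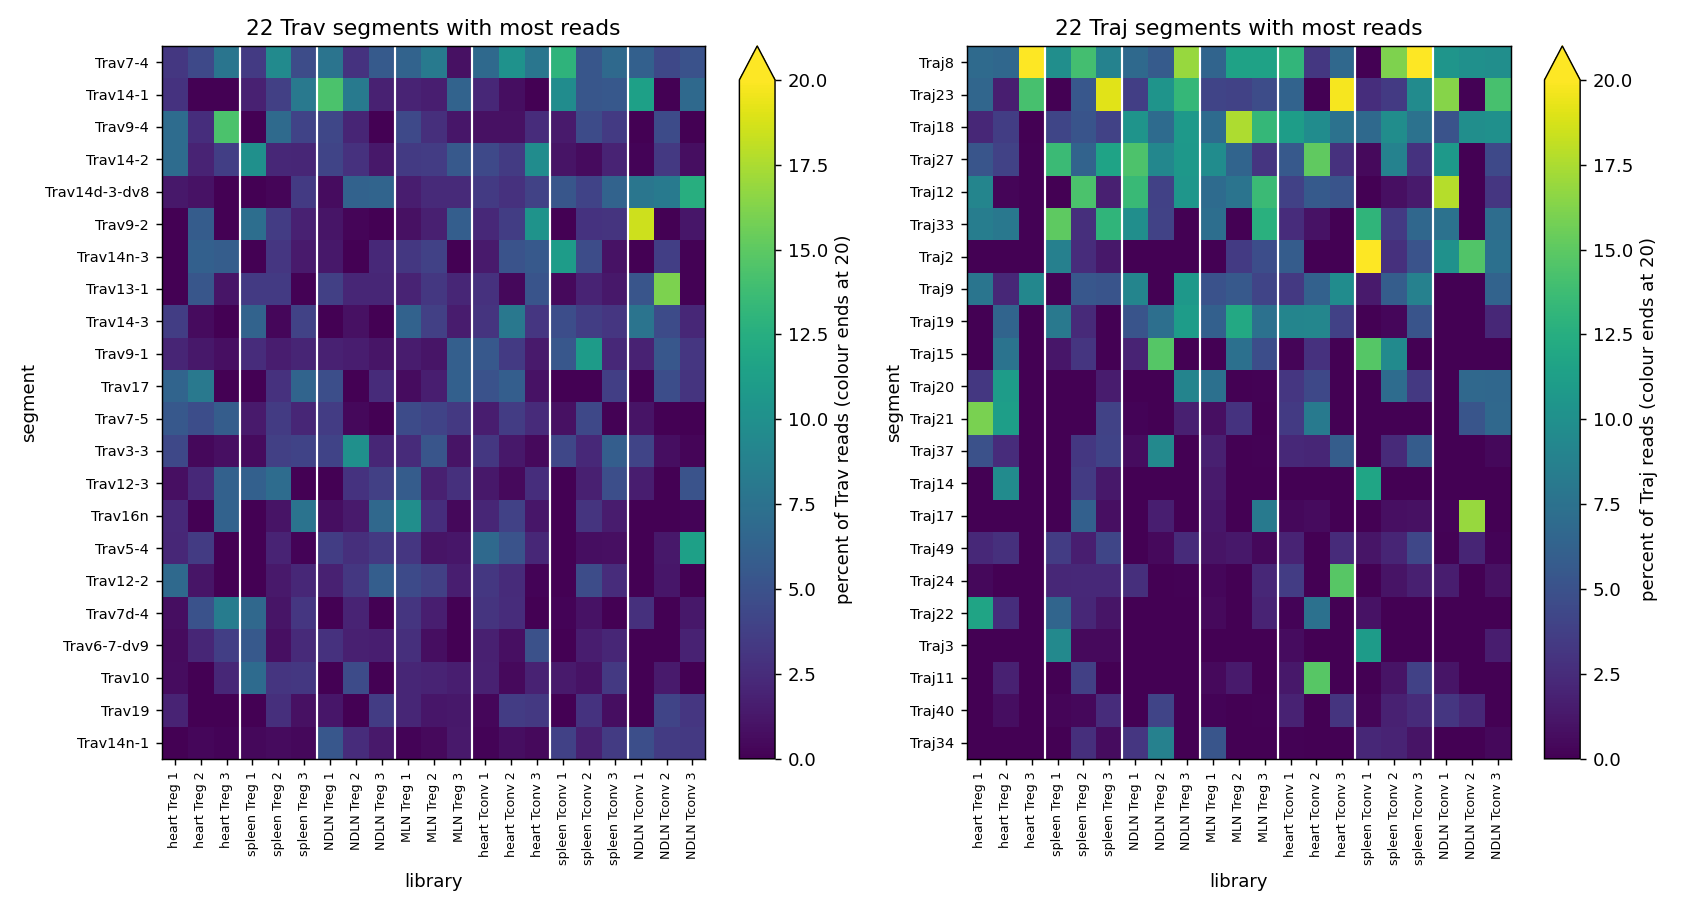
Percent of Trav reads (left) or Traj reads (right) in each library for the 22 segments of each kind with the most reads, with white lines between groups and the colour scale ending at 20%. Bright cells are scattered over libraries of 1 group, as for Trav13-1 at 16.0% in NDLN Tconv replicate 2, while Traj8 and Traj18 have reads in 20 of 21 libraries.

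Trav7-4 among the Trav and Traj8 among the Traj segments were in the 5 highest mean shares of every group. Traj8 ran from 7.71 ± 5.02% (SD, n = 3) in heart Tconvs to 13.6 ± 11.8% (SD, n = 3) in heart Tregs. Trav7-4 ran from 5.13 ± 3.79% (SD, n = 3) in MLN Tregs and 5.13 ± 2.32% (SD, n = 3) in heart Tregs to 8.39 ± 4.05% (SD, n = 3) in spleen Tconvs. Trav7-4 was also the only Trav segment above 5% in 10 or more libraries, namely in 14. Heart Tregs were led on average by Trav9-4 (7.99 ± 5.92%, SD, n = 3) and Trav7-5 (5.37 ± 0.617%, SD, n = 3). Heart Tconvs were led by Trav7-4 (8.29 ± 1.71%, SD, n = 3) and Trav14-2 (5.89 ± 3.37%, SD, n = 3). NDLN Tconvs were led by Trav14d-3-dv8 (9.51 ± 2.65%, SD, n = 3), a segment that can also join to the delta locus. Only 7 of 128 Trav segments and 0 of 60 Traj segments had reads in all 21 libraries.

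Set beside lymphoid Tregs, heart Tregs had the largest mean excess for Trav9-4, Trav7-5 and Trav7d-4 and the largest deficit for Trav14-1, Trav3-3 and Trav14d-3-dv8. Trav7-5 took 5.53, 4.69 and 5.89% in heart Tregs. Its share was 4.56, 4.04 and 3.32% in MLN Tregs, 1.42, 3.45 and 2.14% in spleen Tregs and 3.56, 0.412 and 0% in NDLN Tregs, so that heart Tregs lay above all 9. Trav9-4 took 7.08, 2.58 and 14.3% in heart Tregs against 0 to 6.92% in lymphoid Tregs, and Trav14-1 took 2.92, 0 and 0.00957% against 1.71 to 14.3%, and in both cases the groups overlapped. Of the 166 segments with reads, 3 did not overlap between heart and lymphoid Tregs (Trav7-5, Trav6d-7 and Traj18). On the CPM scale, 3.93% of the 14996 genes tested did not overlap in that comparison. In Tconvs 5 of the 166 segments did not overlap between heart and lymphoid libraries, against 15.8% of genes on the CPM scale. The segments were counted by share and include those that failed the filter on low counts. The genes all passed it, so the figures for segments and genes are not on the same basis. Trav14-2 took 4.43, 3.51 and 9.75% in heart Tconvs and 0.197 to 3.31% in lymphoid Tconvs. Trav14d-3-dv8 took 3.39, 2.85 and 3.94% in heart Tconvs and 4.01 to 12.6% in lymphoid Tconvs. Trav14n-1 took 0.210, 0.712 and 0.530% in heart Tconvs and 1.74 to 4.82% in lymphoid Tconvs, and the remaining non-overlapping segments, Trav3d-3 and Trav14d-1, were below 0.6% in every library. These are descriptions of segments picked by their shares. Trav6d-7, Trav14n-1, Trav3d-3 and Trav14d-1 have no stretch of 50 bases that is absent from all other Trav transcripts, so their shares are uncertain.

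Trav6-3 had 0 reads in all 3 heart Treg libraries, which allows a share of up to 0.0380, 0.0325 and 0.0287%. MLN Tregs had 55, 90 and 173 reads of it, spleen Tregs 149, 144 and 80, and NDLN Tregs 23, 10 and 0. In Tconvs it had 14, 0 and 61 reads in heart, 314, 274 and 66 in spleen and 60, 108 and 0 in NDLN. Its near-identical copy Trav6d-3 also had 0 reads in the heart and NDLN Tregs, against 73, 79 and 73 in spleen Tregs. Traj2, the joining segment printed above, had 0 reads in all heart and all NDLN Treg libraries and took 7.41 to 14.6% in NDLN Tconvs.

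As expression levels of single genes, 0 of the 129 segments tested differed in any of the 6 contrasts with edgeR's quasi-likelihood test at an adjusted p under 0.05. Among all genes tested, the share called was 0.147% for heart against spleen Tregs, 0.533% against NDLN Tregs, 0.0667% against MLN Tregs, 0.473% for heart against spleen Tconvs, 2.88% against NDLN Tconvs and 0.0667% for heart Tregs against heart Tconvs. In that order, 11, 13, 13, 2, 5 and 7 segments had an unadjusted p under 0.05, which is 8.53, 10.1, 10.1, 1.55, 3.88 and 5.43% of those tested against 11.7, 15.5, 9.58, 12.5, 18.6 and 7.81% of all genes. By the same order, DESeq2 called 6, 11, 8, 7, 7 and 8 segments. DESeq2 called 9.02, 12.3, 7.42, 9.8, 18.1 and 6.54% of all genes in the same contrasts. Among the segments it called was Trav7-6, with 0, 179 and 0 reads in spleen Tregs and 0 in each heart Treg library. The lowest adjusted p by edgeR was 0.188, for Trav6n-6 in heart against NDLN Tconvs, with 57, 160 and 42 reads against 0, 0 and 0. For Trav6-3 it was 0.325 against spleen Tregs, 0.286 against NDLN Tregs and 0.440 against MLN Tregs. Against spleen Tregs 61 segments were higher in heart Tregs and 62 lower, with a median log2 fold change of 0 against -0.02 over all genes. In heart against NDLN Tconvs 67 were higher and 60 lower, with a median of 0.24 against 0.48 over all genes.

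Summed over the locus, Trav RNA was 377 ± 38.3 CPM (SD, n = 3) in heart Tregs, 326 ± 111 CPM (SD, n = 9) in lymphoid Tregs, 431 ± 64.2 CPM (SD, n = 3) in heart Tconvs and 359 ± 34.4 CPM (SD, n = 6) in lymphoid Tconvs, all without TMM scaling. On the log2 scale the Tconv difference was 0.26 (exact permutation p = 0.0357, adjusted 0.298), and it turned to -0.15 when the library sizes were scaled by TMM. Tregs were lower than Tconvs by 0.37 on the log2 scale over heart, spleen and NDLN (exact permutation p = 0.032, adjusted 0.298). Traj reads were fewer, at 23.9 to 167 CPM, and the ratio of Trav to Traj reads ran from 2.17 to 15.9 between libraries. Trac, the constant gene, was at 1411 ± 157 CPM (TMM-scaled, SD, n = 3) in heart Tregs, 1620 ± 299 in MLN Tregs, 1044 ± 520 in spleen Tregs and 695 ± 188 in NDLN Tregs, and it was not called in any contrast.

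Joining segments are numbered by position, 61 farthest from Trac and 1 nearest to it. Developing thymocytes use the far ones first, and later rounds of joining move towards Trac. Traj1 to Traj33, the near part of the array and most of the 60 Traj segments, held 61.8 to 97.4% of Traj reads. The share was 74.8 ± 12.1% (SD, n = 3) in heart Tregs, with 85.8, 76.9 and 61.8% in replicates 1 to 3, and 85.9 ± 9.07% (SD, n = 9) in lymphoid Tregs. The read-weighted mean Traj number was 22.9, 24.0 and 26.1 in heart Tregs, which is 24.3 ± 1.63 (SD, n = 3) against 21.9 ± 3.08 (SD, n = 9) in lymphoid Tregs, with an exact permutation p of 0.218 and an adjusted p of 0.558. In Tconvs it was 21.8 ± 2.14 (SD, n = 3) in heart and 20.7 ± 4.62 (SD, n = 6) in lymphoid libraries (exact permutation p = 0.702). Reads on a segment do not by themselves show that it was joined. Segments with no match to the motif held 24.2% of all Traj reads, and the pseudogene Traj8 had 3028 reads. How far the position of the reads follows the segments that were joined was not tested. Traj44, Traj21 and Traj39 had the largest mean excess in heart Tregs and Traj18, Traj27 and Traj12 the largest deficit. Traj44 and Traj39 each had reads in only 3 of the 21 libraries, 207 and 157 in all.

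**Figure D5:**
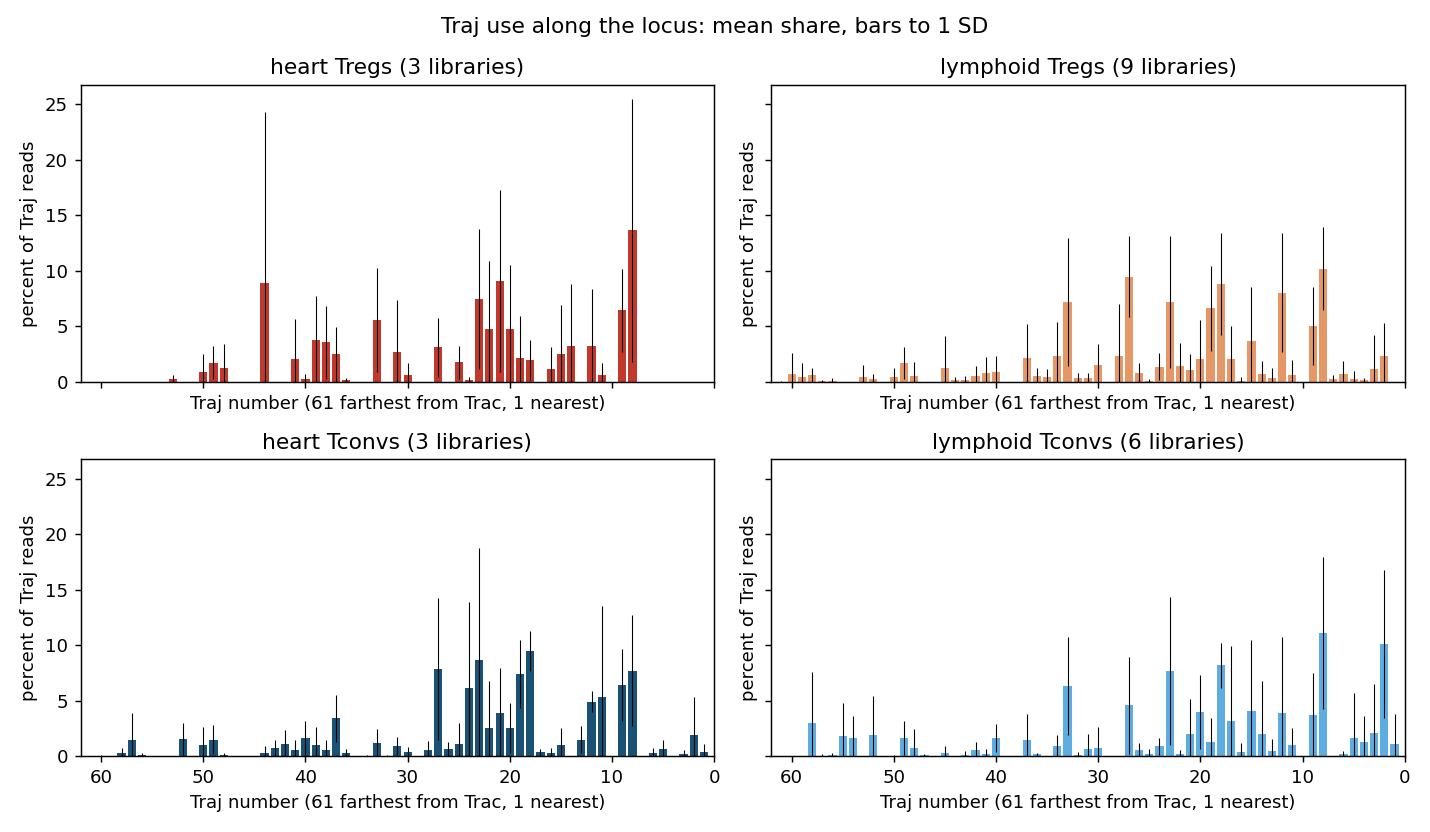
Mean percent of Traj reads (vertical axis) for each Traj segment in the order of the locus (horizontal axis, high numbers far from Trac), with lines to 1 SD over libraries that stop at 0. Reads lie mostly between Traj33 and Traj2 in all 4 panels, and the bar at Traj44 in heart Tregs comes from replicate 3 alone.

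Traj18 is the joining segment of the invariant natural killer T (NKT) cell receptor, in which it is paired with Trav11, and it is also used by ordinary T cells. Its share was 2.21, 3.63 and 0% in heart Tregs, where the 0 of 678 reads allows up to 0.442%. MLN Tregs had 6.98, 17.5 and 13.3%, spleen Tregs 4.18, 5.20 and 3.92% and NDLN Tregs 10.4, 6.99 and 10.8%, so heart Tregs lay below all 9 lymphoid Treg libraries, by a small margin for spleen. Heart Tconvs had 11.1, 9.73 and 7.53%, spleen Tconvs 6.83, 9.81 and 7.53% and NDLN Tconvs 5.09, 9.87 and 10%, with overlap. Trav11 had 79 reads in 4 libraries and its copy Trav11d at most 1.06% of Trav reads, in spleen Tconv replicate 2. Neither has a stretch of 50 bases that is absent from all other Trav transcripts, so these low counts are uncertain. The invariant NKT marker list of 5 genes summed to 2.80 to 4.34 CPM in heart Tregs, with 3 of 5 genes having counts, and to 2.22 to 15.3 CPM in lymphoid Tregs. It summed to 4.34 to 22 CPM in heart Tconvs and 8.68 to 113 CPM in lymphoid Tconvs. Within the list, Zbtb16, the transcription factor of NKT cells, had 10 counts in all libraries together, while Klrb1c, the receptor NK1.1, had 5687 in 15 libraries and reached 103 CPM (TMM-scaled) in spleen Tconv replicate 2. The segments of the MAIT cell receptor, Trav1 and Traj33, varied within groups: Trav1 took 1.15, 0 and 0.00957% in heart Tregs and up to 3.46% in MLN Tregs, and Traj33 took 8.51, 8.03 and 0.147% in heart Tregs and 0 to 15% in lymphoid Tregs.

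Replicates of a group used different segments to a large extent. The shared percent, which is the sum over segments of the smaller of the 2 shares, had a median of 46.8% for Trav over the 21 pairs within groups, 46.0% over the 81 other pairs of the same cell type and 43.3% over the 108 pairs of different cell types. For Traj these medians were 47.7, 42.2 and 43.2%. Heart Tregs shared 33.6, 37.9 and 40.9% of Trav reads pairwise, and heart Tconvs 52.9, 55.8 and 63.5%. Within each of the 21 replicate pairs the Trav and Traj counts differed by more than read-sampling noise, with a chi-square per degree of freedom of at least 36.0 for Trav and 20.8 for Traj. Separately amplified repeats of a sample could also differ by this much.

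The other receptor genes gave the setting for the alpha segments. Of 21 genes listed, 18 were tested, and 3 passed in heart against NDLN Tconvs: Cd3e, a signalling subunit of the receptor complex, was higher in heart by 1.60 ± 0.41 on the log2 scale (SE, adjusted p = 0.0394 by edgeR), and Cd3d, another subunit, fell by 1.29 ± 0.30 (adjusted p = 0.0234 by edgeR). Trbc2, a constant gene of the beta chain, fell by 1.09 ± 0.24 (SE, adjusted p = 0.0189 by edgeR). Of all genes, edgeR called 2.88% in that contrast. In the other 5 contrasts 0 of 18 passed with edgeR, with 3, 10, 6, 5 and 4 genes under an unadjusted p of 0.05 for heart against spleen, NDLN and MLN Tregs, heart against spleen Tconvs, and heart Tregs against heart Tconvs. Of all genes, 11.7, 15.5, 9.58, 12.5 and 7.81% had such a p, in the same order. In the same 5 contrasts 4, 5, 3, 3 and 4 of the 18 were called by DESeq2, among them Tcrg-C1 in all contrasts of heart Tregs, Trbc1 against NDLN Tregs (adjusted p = 0.00398 by DESeq2), and Cd3d, Trbc2 and Lck in heart against spleen Tconvs. Tcrg-C1 was at 0, 31.3 and 0.0417 CPM (TMM-scaled) in spleen Tregs, so that call rested on 1 library. In NDLN Tregs, MLN Tregs and heart Tconvs each library had at least 15.8 CPM of it. Cd8a and Dntt, also called against spleen Tregs, were at 0, 4.05 and 0 CPM and at 0, 0 and 0.0417 CPM in those libraries. DESeq2 called 7 in heart against NDLN Tconvs, including the 3 above. Of all genes it called 9.02, 12.3, 7.42, 9.8 and 6.54% in the 5 contrasts and 18.1% in heart against NDLN Tconvs. Trbc1 missed the threshold in heart against NDLN Tregs, at -1.25 ± 0.29 (SE, adjusted p = 0.0531 by edgeR). Of the recombination genes, Rag2 had 0 counts and Rag1 71 counts in a single library, and Ptcra, the surrogate alpha chain of thymocytes, had 2 counts. Dntt, which adds bases at the joints, had 2204 counts in 9 libraries and was at 0 in each heart Treg library. Most lymphoid Treg libraries also had little or none: 0, 0 and 0.0417 CPM in spleen, 0, 0 and 24.8 CPM in NDLN and 6.75, 0 and 0 CPM in MLN (TMM-scaled). In Tconvs it was at 14.4, 0 and 14.5 CPM in heart, 0.562, 0 and 3.11 CPM in spleen and 0, 12.3 and 34.6 CPM in NDLN (TMM-scaled). The gamma-delta marker list summed to 0.0706 to 5.63 CPM in heart Tregs and 3.06 to 120 CPM in lymphoid Tregs, and to 47.9 to 81.8 CPM in heart, 56.4 to 276 CPM in spleen and 15 to 46.9 CPM in NDLN Tconvs. For the beta chain, Trbv evenness was 0.812, 0.693 and 0.781 in heart Tregs and 0.783 to 0.848 in lymphoid Tregs, so that the lowest value of all was in heart Treg replicate 2. The lowest Traj evenness was in a different heart Treg library, replicate 3, and the lowest Trav evenness in NDLN Tconv replicate 1 (0.611).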

How the data were processed

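Bulk RNA of 21 mouse T cell libraries was analysed from raw read counts per gene, whole numbers as deposited by the authors. CASAVA 1.8.2, HISAT2, HTSeq 0.6.0 and the build mm10 are named in the submitters' processing notes; the sources used here do not give the strand setting, the annotation or the handling of multiply matched reads. Per the labels' protocols, cells were sorted magnetically and by flow cytometry, and a SMARTer ultra-low-input kit was used. Each of the 21 columns matched 1 library by name and 0 were left unused. All 188 segments matched GENCODE M21 by ID and had a transcript sequence.

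All 21 libraries entered 1 fit in edgeR 4.0.16 (R 4.3.3; filterByExpr minimum count 10 and total 15; TMM; robust quasi-likelihood; Benjamini-Hochberg over the 14996 genes that passed), and DESeq2 1.42.0 was an alternative. Evenness, largest share, mean Traj number and summed level were compared by exact two-sided permutation tests over libraries (scipy 1.17.1), 25 tests in all. Tests were checked on simulated data. The counts simulated for edgeR varied less between libraries than these, whose common dispersion, edgeR's measure of that spread, was 2.19. That check therefore does not show how well edgeR finds changes in these data. The lymphoid groups are spleen, NDLN and MLN for Tregs and spleen and NDLN for Tconvs. Named segments are the largest of each library, the 5 with the highest mean share per group, the 3 largest share differences each way between heart and lymphoid libraries, the invariant NKT and MAIT segments, and a list of 21 receptor genes; Trav6-3, Trav6d-3, Trav6n-6, Trav7-6 and the segments without overlap were named after their values were seen. The segments, lists and tests were chosen with earlier results of these data known. Alternatives covered size factors, the low-count filter, the evenness formula, thinning, summing by Trav family and leaving out libraries.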

Additional observations from a re-analysis of the deposited data

How the results depend on the processing

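Depth limits the Traj values most: with 678 to 3280 reads per library, a share's 95% interval reached up to 3.47 points to a side, against 1.03 points for Trav, and a count of 0 allowed up to 0.442%. No alternative brought any of the 25 permutation tests past the threshold. For the comparisons of heart with lymphoid libraries this outcome was partly fixed by the number of libraries. With all libraries, the smallest p an exact permutation test could give was 0.00455 in Tregs and 0.0119 in Tconvs. A single such result could not pass after adjustment over 25 tests unless others were also low. With DESeq2 the calls among segments rose from 0 to 6 (heart against spleen Tregs), 11 (NDLN Tregs), 8 (MLN Tregs), 7 (heart against spleen Tconvs), 7 (NDLN Tconvs) and 8 (heart Tregs against heart Tconvs). Calls among all genes rose as well. In the same order they were 0.147, 0.533, 0.0667, 0.473, 2.88 and 0.0667% with edgeR. With DESeq2 they were 9.02, 12.3, 7.42, 9.8, 18.1 and 6.54%. The cause was not tested. With edgeR the calls among segments were 0 with RLE size factors, with no filter on low counts, and in the 16 libraries with at least 0.5% mitochondrial rRNA. Sign changes were as follows, and their cause was not tested. With each library's own number of detected segments as divisor, the Traj evenness difference of heart Tregs became 0.0160, that of Tregs against Tconvs 0.00581 and the difference between cell types 0.00412, and Trav evenness of Tregs against Tconvs became 0.0231. The latter was 0.00378 as a Gini-Simpson index and 0.0201 by Trav family. The largest Traj share of Tregs against Tconvs became 0.984 points for the 3 largest segments and, in settings chosen after seeing the data, 0.200 for reads per exon base and 1.40 without annotated pseudogenes. The largest Traj share of heart Tconvs became 2.06 points in the 16 libraries, of which 1 is a heart Tconv library, and the summed Trav level of heart Tconvs -0.15 on the log2 scale with TMM.

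Leaving out each library in turn gave these ranges for Tregs against Tconvs: Trav evenness -0.0143 to 0.00538, Traj evenness -0.0393 to 0.000425, largest Traj share -2.07 to 0.603 points and summed Traj level -0.398 to 0.0622 on the log2 scale. For heart against lymphoid Tregs they were -0.0639 to -0.0329 for Trav evenness, -0.108 to 0.00951 for Traj evenness, -0.630 to 2.47 points for the largest Trav share, -1.44 to 6.59 points for the largest Traj share and -0.757 to 0.0866 for the summed Traj level on the log2 scale. For heart against lymphoid Tconvs the mean Traj number ran from -0.180 to 2.52, and for the difference between cell types the largest Traj share ran from -0.467 to 7.56 points. Without heart Treg replicate 3 the sign changed in 7 results, among them the Traj evenness and both largest shares of heart Tregs.

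A fit with the replicate number as a block called 0 segments in each contrast. Same-numbered libraries of compared groups had correlations of their deviations from the group means of -0.0600 to 0.184, with 2 of 18 over 0.1. Libraries with different numbers had -0.228 to 0.130, with 2 of 36 over 0.1. These values do not settle whether same-numbered libraries share a source, and the block shows nothing of it.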
